A study of Sus scrofa with 48 samples.

Results

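The genes described here drive the cell cycle and copy DNA: 38 gene symbols for cyclins and their kinases, kinetochore and spindle proteins, the machinery that licenses and copies DNA, and enzymes that supply nucleotides. They were followed in the liver of 48 pigs on one-colour Agilent arrays. Probes were taken when their gene name, or the gene their accession maps to, was on the list, and the brightest probe stood for a gene. By this rule 30 of the 38 genes had a probe, with 52 probes in all, and MCM4, MCM5, MCM7, TK1, TYMS, CCNA2, CCNE2 and BUB1B were not analysed here. The brightest probe was measured well enough to be tested for 28 genes, among 45236 probes tested over the whole array. The probe of FOXM1 was well above background on 0 arrays and that of TTK on 5, so neither was tested.

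The pigs were Large White barrows from lines selected over 8 generations for residual feed intake (RFI), which is the feed eaten beyond what growth and maintenance predict. Both lines, low RFI and high RFI, received either a diet rich in fat and fiber (HF) or a diet poor in fat and fiber (LF) from 74 days of age. Livers were collected at about 19 weeks of age, 2 h after a meal, and each of the 4 groups (HF low RFI, HF high RFI, LF low RFI, LF high RFI) held 12 pigs. Whole liver was used, so fewer dividing cells and less of a transcript in each cell cannot be told apart.

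Most cells of an adult liver rest outside the cell cycle and divide rarely, while the pigs studied here were still growing. When a cell does enter the cycle, MCM helicases are loaded on replication origins, PCNA clamps the polymerases to DNA, and RRM1 and RRM2 make deoxynucleotides. Later, CDK1 with its cyclins B starts mitosis, TOP2A untangles the copied chromosomes, and AURKA, PLK1, BUB1 and CENPF act on the spindle and the kinetochores. The genes of the late phases are normally switched on together by the same waves of transcription. Hepatocyte markers were bright on all arrays, with a mean over 8 genes between 9.63 and 10.29 log2 units above the array median. Between 65.8 and 77.2% of probes were well above background on each array.

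Many probes are named through a human or bovine relative of the gene, and 7 of the 28 tested members were matched by accession as well as by name. This matters most for MKI67, the classical marker of proliferation. Of its 3 probes, the brightest and 1 other carry an accession that the RefSeq gene table assigns to NIFK, a nucleolar protein that binds the MKI67 product, and the remaining probe carries another accession. The first 30 of the 60 bases of each probe are shown because conclusions on MKI67 depend on which probe is read, and those of the TOP2A probes are shown beside them.
MKI67, brightest probe (accession of NIFK): ctattacccacagctttaagaactaaactg
MKI67, second probe (accession of NIFK): catcttgtatcattatcctcaatctagagg
MKI67, remaining probe (other accession): aaccagtgaacacaccaagtaggaagggac
TOP2A, brightest probe: agtgactctgtaacagattctggaccaacc
TOP2A, second probe: gcattttgacctaaaagtttctactctgcc

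The first question was whether the members differed between diets. At P under 0.01 with a fold change (FC) over 1.1, 2 of the 28 members were over-expressed with the HF diet and 0 were under-expressed. These were CENPF, a kinetochore protein of late G2 and mitosis, and CDK2, the kinase of the start of DNA synthesis. Over all tested probes, 4.61% met the same rule in either direction and 2.07% did so with higher values on the HF diet, so the members' count lay close to the background. Over the 9532 named genes, each by its brightest probe, the share called in either direction was 4.3%. None of the 28 members had an adjusted P (P-BH, Benjamini-Hochberg over all tested probes, limma) under 5%, against 0.455% of all probes. At an unadjusted limma P under 0.05 there were 5 members, all with higher values on the HF diet. The share of all probes at this looser cut was not counted, so the 5 are no result about the members.

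CENPF had log2 intensities (relative to the array median) with a lowest, median and highest value of -1.50, 0.01 and 0.93 in HF low RFI pigs. They were -1.46, -0.55 and 1.26 in HF high RFI pigs. They were -2.20, -1.21 and 0.58 in LF low RFI pigs and -1.73, -1.06 and 0.25 in LF high RFI pigs. The groups overlapped, but 21 of 24 pigs fed HF lay above the median of the pigs fed LF. The diet difference was 0.69 ± 0.21 log2 units (SE, n = 24 per diet; limma P-BH = 0.106), a FC of 1.61. It was 0.93 ± 0.29 in the low RFI line and 0.45 ± 0.29 in the high RFI line, and the interaction had an unadjusted limma P of 0.242. The other 3 CENPF probes differed by 0.63, 0.69 and 0.78 log2 units between diets, so the 4 probes gave similar values. Arrays were scanned on 2 days, and the CENPF difference was 0.53 on the first day (unadjusted P = 0.0929, limma) and 0.85 on the second (unadjusted P = 0.0047, limma).

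CDK2 had a lowest, median and highest log2 intensity of 0.02, 0.47 and 0.76 in HF low RFI pigs and of 0.09, 0.52 and 0.74 in HF high RFI pigs. In pigs fed LF they were -0.29, 0.12 and 0.60 in the low RFI line and -0.23, 0.44 and 0.69 in the high RFI line. In all, 19 of 24 pigs fed HF exceeded the median of the pigs fed LF. The difference was 0.21 ± 0.07 log2 units (SE, n = 24 per diet; limma P-BH = 0.159), a FC of 1.15. It was 0.20 on the first scan day and 0.22 on the second, with unadjusted limma P of 0.0276 and 0.0439.

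**Figure D1:**
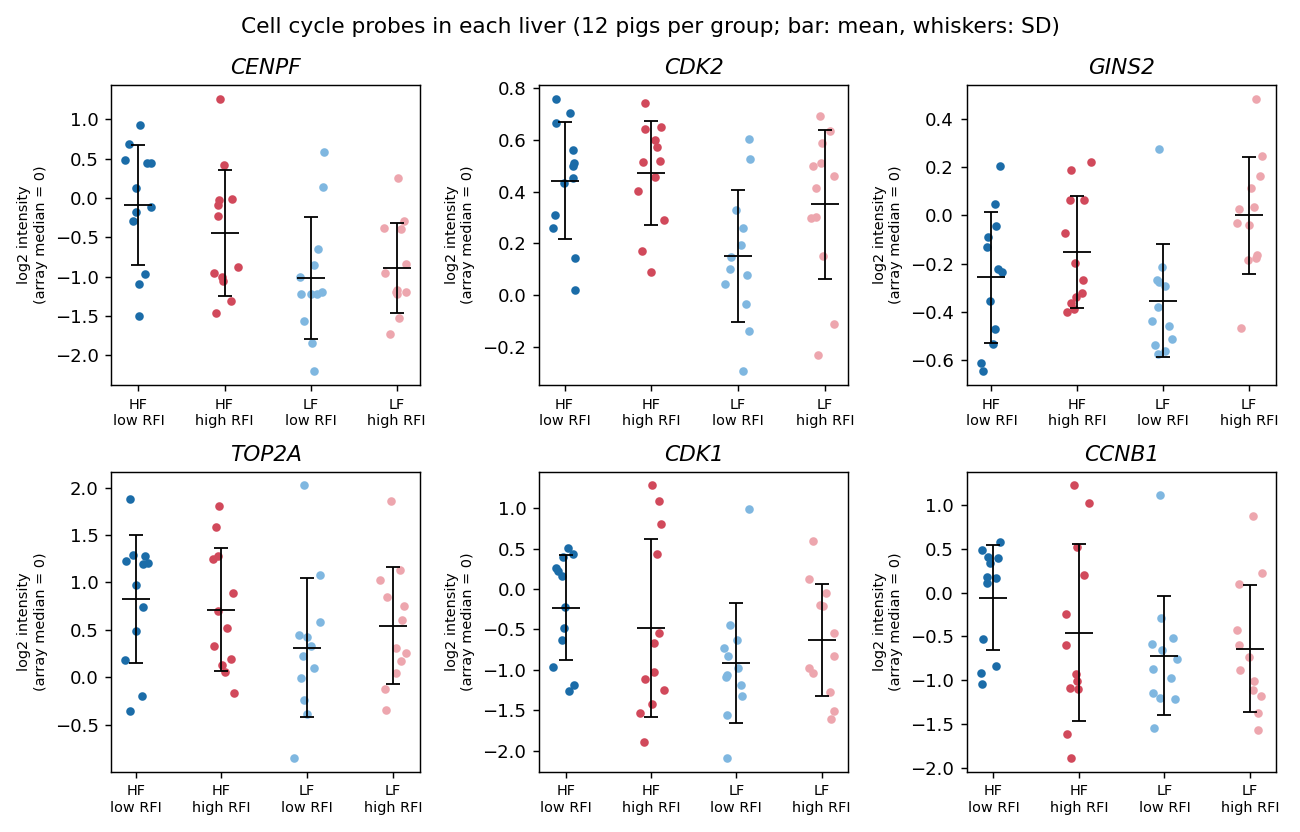
Log2 intensity relative to the array median (y axis) in each pig of the 4 groups (x axis), for the 3 members called for diet or line and for TOP2A, CDK1 and CCNB1. Bars give the mean and whiskers the SD over 12 pigs, and the groups overlap in every panel, with CENPF above the LF median in 21 of 24 pigs fed HF.

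The mitotic cyclins and kinases had a median diet difference of 0.22 log2 units over 8 tested members, against -0.01 over all tested probes, and none was called. CDK1 differed by 0.41 ± 0.23 log2 units (limma P-BH = 0.410) and its partner CCNB1 by 0.42 ± 0.22 (limma P-BH = 0.360). CCNB2, another B cyclin, differed by 0.16 ± 0.08 (limma P-BH = 0.361). All 8 values were above 0, from 0.06 to 0.48, over both scan days, but not within each. On the first scan day 4 of the 8 were above 0, with a range from -0.20 to 0.36, and on the second all 8 were, from 0.09 to 0.88. CDK1 differed by 0.00 on the first day and 0.82 on the second, and CCNB1 by -0.03 and 0.88. Under other settings PLK1, the highest of the 8, ran from 0.05 to 0.60, and AURKB, the lowest, from 0.03 to 0.34. Of the 28 members, 12 had diet differences of opposite sign on the 2 days, and the difference between days was not tested. Most members of this role varied together across pigs, CCNB2 and AURKB by their brightest probes being exceptions, so their signs are not all independent.

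Among the 9 chromosome, kinetochore and spindle members the median diet difference was 0.16 log2 units, and CENPF was the member called. TOP2A, which untangles sister chromatids, differed by 0.34 ± 0.19 log2 units (limma P-BH = 0.400), with -0.11 on the first scan day and 0.80 on the second. Its second probe differed by 0.58 ± 0.22 (limma P-BH = 0.207) and was not called either. MKI67 by its brightest probe differed by -0.13 ± 0.08 (limma P-BH = 0.426), and KIF11, a spindle motor, gave the lowest value of all members, -0.19 ± 0.11 (limma P-BH = 0.412).

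The replication members sat close to 0 between diets, with a median of -0.03 log2 units over 7 genes. PCNA differed by -0.01 ± 0.07 log2 units. The helicase subunits MCM2, MCM3 and MCM6 differed by 0.06 ± 0.20, 0.02 ± 0.15 and -0.03 ± 0.10. RRM2, which limits deoxynucleotide supply, differed by 0.22 ± 0.19 (-0.16 on the first scan day and 0.59 on the second), and E2F1, a transcription factor of the G1 to S transition, by -0.08 ± 0.05. None of these passed the test.

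Between lines, 1 of the 28 members was called, with lower values in low RFI pigs. It was GINS2, a subunit of the GINS complex that belongs to the active replication helicase. The background was 6.91% of all tested probes, so the members were called no more often than other probes. At a P-BH of 5% 0 members and 3.93% of probes passed in limma, and 2 members had an unadjusted P under 0.05. For the latter cut the share of all probes was not counted.

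GINS2 had a lowest, median and highest log2 intensity of -0.65, -0.23 and 0.20 in HF low RFI pigs and of -0.40, -0.23 and 0.22 in HF high RFI pigs. In pigs fed LF these were -0.57, -0.41 and 0.27 in the low RFI line and -0.47, 0.00 and 0.48 in the high RFI line. Of the 24 low RFI pigs, 20 lay under the median of the high RFI pigs. The difference was -0.23 ± 0.07 log2 units (SE, n = 24 per line; limma P-BH = 0.0538). It was -0.29 on the first scan day and -0.17 on the second (unadjusted limma P of 0.0079 and 0.0579). With slide as a block 1 member passed a P-BH of 5%.

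The other replication members had line differences on both sides of 0. MCM2, MCM3 and MCM6 differed by -0.20 ± 0.20, -0.24 ± 0.15 and -0.22 ± 0.10 log2 units, with limma P-BH of 0.748, 0.518 and 0.267. On the first scan day these 3 differed by -0.37, -0.26 and -0.20, and on the second by -0.04, -0.21 and -0.24. PCNA, CDC6 and CDC45 lay above 0, at 0.08 ± 0.07, 0.04 ± 0.08 and 0.03 ± 0.07. The median over the 7 licensing and fork members, GINS2 included, was -0.20, against 0.01 over all tested probes. Over 28 tested replication genes outside the list the median was 0.02, so the wider list was not lower in low RFI pigs. For the mitotic cyclins and kinases it was 0.00. No member was called for the interaction of line and diet (limma; 0 members at an unadjusted P under 0.05), and 0.376% of all probes were.

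**Figure D2:**
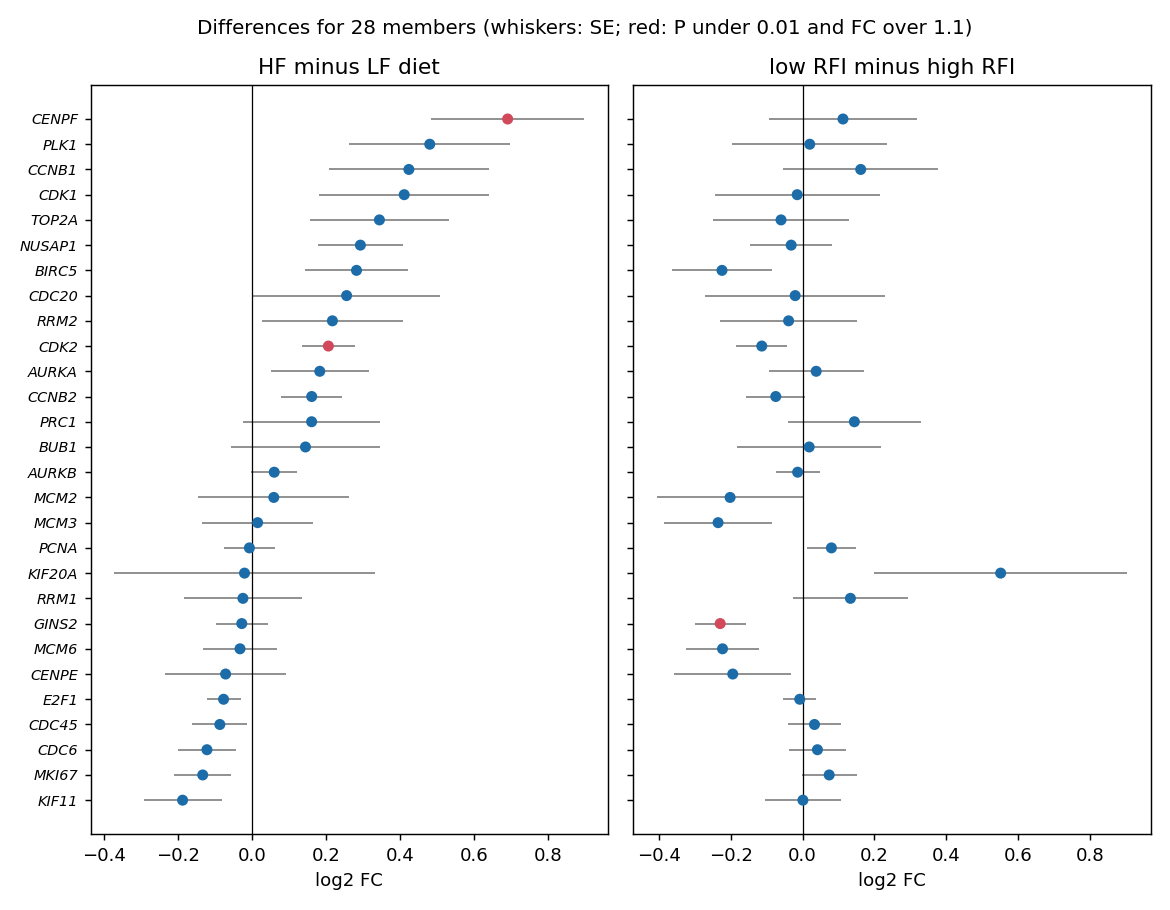
Log2 FC (x axis) of the 28 tested members (y axis, ordered by the diet difference) for HF minus LF (left) and low RFI minus high RFI (right), with SE. Red points met P under 0.01 and FC over 1.1: CENPF and CDK2 for diet and GINS2 for line.

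Other genes of these pathways were also counted. Of 32 tested mitosis genes outside the list, none was called for diet or line, and their median diet difference was 0.19 log2 units. Of 28 tested replication genes, 0 were called for diet and 2 for line, a share near the 6.91% of all probes: RFC3, a clamp loader subunit, was higher in low RFI pigs by 0.47 log2 units (limma P-BH = 0.019), and POLD2, a polymerase delta subunit, differed by -0.22 (limma P-BH = 0.097). Among 18 G1 cyclins, kinases, pocket proteins and E2F factors, CDK6, a G1 kinase, was the 1 gene called for diet, with a difference of -0.18, and 0 were called for line. Among 20 inhibitors and p53 targets, CDKN2D, an inhibitor of CDK4 and CDK6, differed by 0.17 and GADD45B, a stress gene, by -0.52 between diets. In the same list GADD45G differed by -0.40 and PLK3 by -0.64 between lines. The share of all probes called was 4.61% for diet and 6.91% for line, beside which these counts of 1 or 2 genes per list are no result about the lists.

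The second question was which members vary together between livers once line and diet means are removed. The reference chosen for it was MKI67 by its brightest probe, with TOP2A and CDK1 as alternatives. With MKI67, 1 of 27 members was positively associated at a P-BH of 5%, adjusted over every probe in the fit, and 2 were negatively associated, while 9.68% of all probes were positively and 5.55% negatively associated. CDC45, a helicase component, had Pearson r = 0.61 (permutation p = 2e-05) and Spearman rho = 0.54 (permutation p = 0.0001) over 48 pigs, and r = 0.65 without the 2 pigs farthest from the MKI67 median. CDC6, which loads the helicase, had r = -0.54 (permutation p = 0.0001) and rho = -0.54 (permutation p = 0.00011), with r = -0.48 without those pigs. KIF11 had r = -0.43 (permutation p = 0.0044) and rho = -0.38 (permutation p = 0.013), with r = -0.36 without them. On the first scan day r was 0.34 for CDC45, -0.38 for CDC6 and -0.08 for KIF11. On the second it was 0.74, -0.70 and -0.63. The other tested CDC45 probes had r of 0.15, 0.48 and 0.54 with this reference over all pigs. Those with 0.48 and 0.54 have the same sequence, which overlaps that of the brightest probe, so they are no separate support. The probe with 0.15 has a different sequence. Permutations were 2-sided, within line and diet groups, and were run for 27 members with each of MKI67 and TOP2A, 54 relations in all.

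The other 7 of the 10 strongest associations with MKI67 did not pass. PRC1 and CCNB1 had r of 0.37 and 0.36, BUB1 0.36, MCM6 0.35 and NUSAP1 0.33, while CDK2 had -0.35 and E2F1 -0.33. TOP2A itself had r = 0.13 with this probe (permutation p = 0.4). With the MKI67 probe that lacks the NIFK accession, 0 members passed a P-BH of 5% in limma and 5 had an unadjusted P under 0.05. How many of all probes met that unadjusted cut was not counted. The probe not assigned to NIFK had r = 0.40 with TOP2A (limma P-BH = 0.350) and r = -0.32 with the brightest MKI67 probe. The 2 probes assigned to NIFK had r = 0.87 with each other. The MKI67 values therefore depend on which probe is read, and what each probe reports was not tested.

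With TOP2A as reference 14 of 27 members were positively associated at a P-BH of 5% and 0 negatively, against 0.497% of all probes and 0.682% of the named genes. With CDK1 the count was 16, against 0.696% of all probes. These counts are given beside the MKI67 count, and the weight placed on TOP2A was decided after all 4 references had been seen. TOP2A varied widely between pigs of 1 group: the highest pig exceeded the lowest 4.72-fold in HF low RFI, 3.92-fold in HF high RFI, 7.36-fold in LF low RFI and 4.63-fold in LF high RFI. Its SD within groups was 0.67 log2 units, larger than that of 96.8% of the 36913 probes well above background on every array. The median SD of these probes was 0.25.

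CDK1, CCNB1 and RRM2 followed TOP2A most closely. CDK1 had r = 0.91 and rho = 0.92 (permutation p = 1e-05 for both, the smallest 100000 permutations can give), and r = 0.88 without the 2 pigs farthest from the TOP2A median. CCNB1 had r = 0.89 and rho = 0.89, and RRM2 r = 0.90 and rho = 0.89, with the same permutation p. CDK1 ranged from -2.09 to 0.98 log2 units in LF low RFI pigs and from -1.90 to 1.28 in HF high RFI pigs, so the pigs of 1 group differed more than the group means did. For TOP2A the deviations of the 48 pigs spanned 2.90 log2 units, with a largest gap of 0.40 between neighbouring pigs and of 0.19 among the 40 central pigs.

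AURKA, CDC20, PLK1 and BUB1, all acting in mitosis, had r of 0.83, 0.76, 0.72 and 0.72 with TOP2A. NUSAP1, BIRC5, CENPF and PRC1, proteins of the spindle and chromosomes, had 0.70, 0.70, 0.69 and 0.62. Some of these probes were dim: those of CDC20, PLK1, PRC1 and BUB1 were well above background on 33, 31, 35 and 46 arrays. Replication members were among those associated too: MCM3 had 0.69, PCNA 0.68 and MCM2 0.60. GINS2, MCM6 and CDC45 had 0.51, 0.38 and 0.35 and did not pass the P-BH of 5%.

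**Figure D3:**
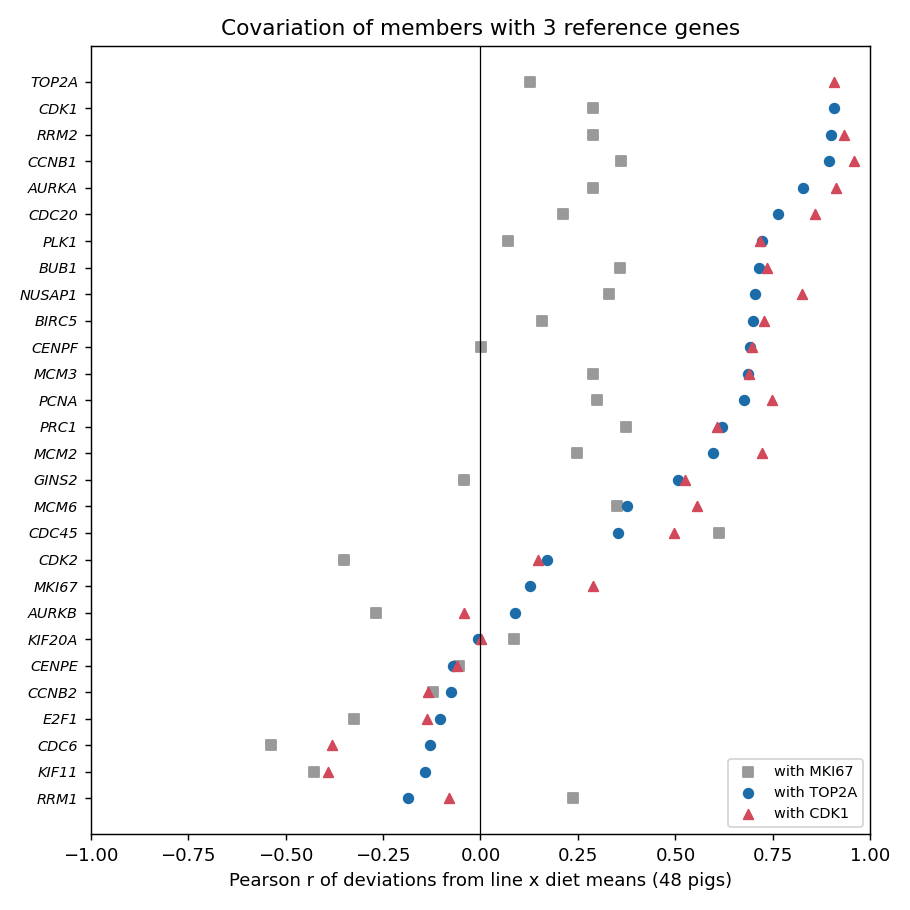
Pearson r (x axis) over 48 pigs between each tested member (y axis) and MKI67 (squares), TOP2A (circles) and CDK1 (triangles), after removing line and diet means. The 14 members associated with TOP2A lie between 0.60 and 0.91 with TOP2A, while their r with the brightest MKI67 probe, assigned to NIFK, is never above 0.37.

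The 14 members were picked over all 48 pigs. Their r in parts of the same pigs, by scan day, line or diet, describe them and are no separate test. Among the 14 members, r with TOP2A lay between 0.56 and 0.93 on the first day and between 0.52 and 0.89 on the second. With slide means removed it lay between 0.51 and 0.90. It ranged from 0.41 to 0.92 in the low RFI line, from 0.60 to 0.93 in the high RFI line, from 0.62 to 0.94 with HF and from 0.38 to 0.91 with LF. Fewer members passed in these smaller sets, 6 in the low RFI line (0.29% of all probes), 13 in the high RFI line (0.396%), 10 with HF (0.298%), 6 with LF (0.305%), 9 on the first scan day (0.294%) and 8 on the second (0.241%). Across all 378 pairs of members the median r was 0.17, and 116 pairs exceeded 0.5.

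**Figure D4:**
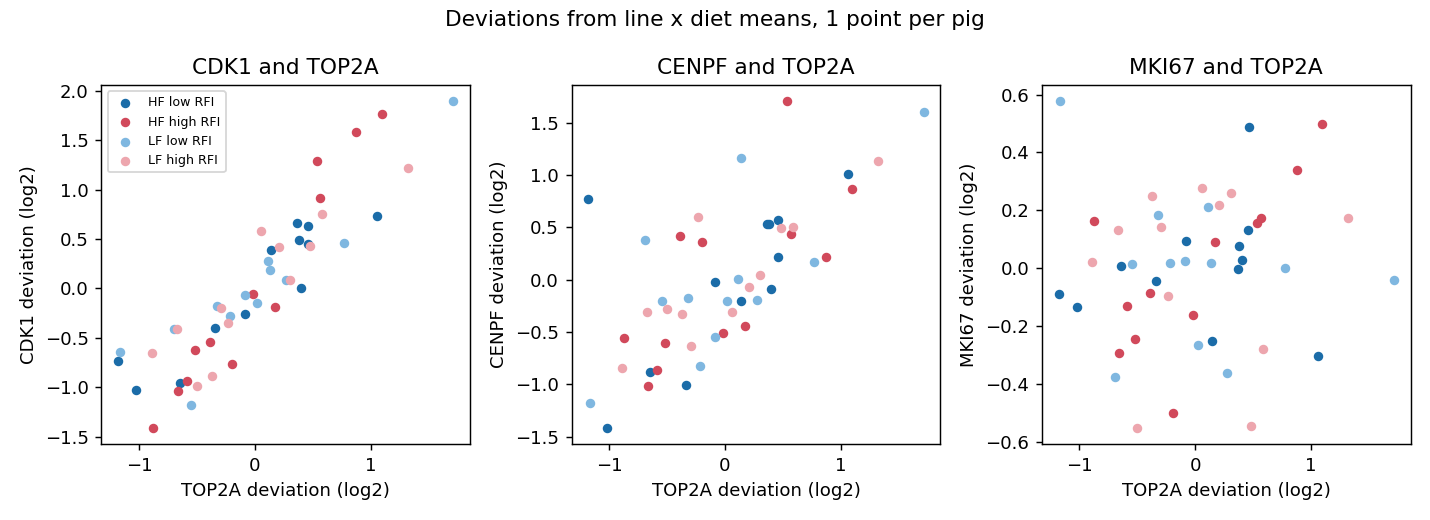
Deviation of CDK1, CENPF and MKI67 from the mean of each line and diet group (y axis, log2) against that of TOP2A (x axis, log2), 1 point per pig in 4 colours for the groups. CDK1 rises with TOP2A (r = 0.91), CENPF does so with more scatter (r = 0.69), and the brightest MKI67 probe, assigned to NIFK, does not (r = 0.13).

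The choice of probe also mattered for other members. The brightest AURKB probe had r = 0.09 with TOP2A, and another AURKB probe, on all 48 arrays well above background, had 0.81. The brightest CCNB2 probe had r = -0.08, and the second probe, well above background on 20 arrays, had 0.65. CDC6, KIF11, E2F1 and RRM1 had r of -0.13, -0.14, -0.10 and -0.19, and KIF20A and CENPE, well above background on 13 and 20 arrays, had -0.01 and -0.07.

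Mitosis genes outside the list also followed TOP2A. Of 32 tested, 21 were positively associated with TOP2A, among them KIF2C, PTTG1 and PBK, with slopes of 1.08, 1.08 and 1.20 log2 units per log2 unit of TOP2A. Of 28 replication genes 2 were, CLSPN and UHRF1. Among the 10 named genes outside all lists that were most like the mean of 17 mitotic members, by Pearson r over 48 pigs, were ERN2 (0.92), UBE2C (0.92), KIFC1 (0.90), SPAG5 (0.90), PCLAF (0.89), ERCC6L (0.81), GPR19 (0.79), TCF19 (0.79) and FANCA (0.78). These r have no test, and the probe names come from the array or from accessions.

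Cell type markers were compared with TOP2A in the same way. Of 69 tested genes of 8 marker lists, 0 were associated at a P-BH of 5% in limma. At an unadjusted limma P under 0.05, 4 were positively and 3 negatively associated, and the share of all probes at this cut was not counted. The mean of the list had r = 0.17 with TOP2A for T and NK cells, 0.13 for Kupffer cells and macrophages, 0.06 for B and plasma cells, 0.04 for endothelial and stellate cells, 0.05 for cholangiocytes, -0.01 for neutrophils, -0.06 for erythroid cells and -0.34 for hepatocytes. Single genes could differ from these means. They ran from -0.45 to 0.41 for Kupffer cells and macrophages and from -0.44 to -0.05 for hepatocytes. The log2 median intensity of the array had r = 0.19 and the percent of probes well above background -0.10. The part of these measures in the association was not tested.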

How the data were processed

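Liver RNA of 48 pigs was hybridised to one-colour Agilent arrays, 8 per slide on 6 slides, with 2 arrays of each group on each slide and 2 scan days. The deposited scanner files hold intensity per spot, which the authors' feature extraction software had background-subtracted and detrended, and a deposited table holds the authors' log2 values after filtering and median centring (R 2.10.0 in the submitters' processing notes). Precision is limited by the number of arrays, whose median intensity ran from 53.0 to 126.4. Values were log2 transformed, outlier spots removed and arrays centred on the median of tested probes, those well above background on at least 12 arrays. Probes were fitted with limma 3.58.1 (R 4.3.3) for line, diet and their interaction, replacing the two-way ANOVA of the study's methods, which was an alternative. Calls required P under 0.01 and FC over 1.1. Associations added the residual of a reference gene, MKI67 in the planned design, with TOP2A and CDK1 as alternatives and 1 further MKI67 probe added after seeing the data. Group labels alone defined the samples, and p-values treat pigs as replicates. Genes named are the members called, the 10 strongest with MKI67, those that stand for a role, called genes of other lists (at most 5 per list) and the 10 most like the mitotic members, of which 1 is not reported here. The members and lists were chosen with earlier results of these data known. An entry of the member list that is no gene symbol was left out (39 entries, 38 genes). The fits were tested on simulated data. Alternatives are in the closing section.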

Additional observations from a re-analysis of the deposited data

How the results depend on the processing

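Of 100 summary counts under other settings, 80 stayed within 1.5 times the main count, 11 rose and 9 fell. Of 862 member log2 FC under other settings, 813 kept their direction and side of the threshold, 4 newly passed, 4 no longer did and 41 changed sign. None of the sign changes involved a member called for that comparison. On the first scan day alone the diet difference changed sign for AURKA (-0.065), BUB1 (-0.12), CCNB1 (-0.032), CDC20 (-0.20), KIF20A (0.64), MCM2 (-0.015), MCM3 (-0.17), PCNA (0.011), PRC1 (-0.14), RRM1 (0.0085), RRM2 (-0.16) and TOP2A (-0.11), and the line difference for AURKB (0.022), CDC45 (-0.081), CENPF (-0.030) and PRC1 (-0.033). On the second day alone the line difference did for CDC20 (0.093), CDK1 (0.045), E2F1 (0.023), KIF11 (-0.22), NUSAP1 (0.051) and RRM2 (0.024). With normexp it did for BUB1 (-0.010), KIF11 (-0.0020), PLK1 (-0.039) and PRC1 (-0.0035), and the diet difference for MCM2 (-0.030), MCM3 (-0.044) and PRC1 (-0.021). With median signal the line difference did for BUB1 (-0.0079), KIF11 (-0.026) and PLK1 (-0.028) and the diet difference for MCM2 (-0.018) and MCM3 (-0.034). With the deposited values the line difference did for BUB1 (-0.0047) and KIF11 (-0.023) and the diet difference for MCM2 (-0.023) and MCM3 (-0.038). Over all probes of a gene the line difference did for AURKA (-0.028) and CCNB2 (0.053), and with the probe most like TOP2A for CCNB2 (0.18). The count of 2 members called for diet fell to 0 on the first scan day alone and to 1 with the deposited log2 values, which held 21 of the tested members. CDK2 was not among these 21, so its call could not be checked there. The count rose to 3 with 75th percentile centring, with normexp and on the second scan day alone. CDK2 was called on neither scan day alone, and CENPF on the second only. The 1 member called for line fell to 0 on the second scan day alone. The count of members at a P-BH of 5% for line rose from 0 to 1 with normexp, with median signal without background subtraction, with slide or scan day as a block and with the deposited values. With MKI67 the count of 1 became 14 with TOP2A, 16 with CDK1, 0 with the other MKI67 probe, 4 with slide means removed, 4 with normexp, 2 in the high RFI line alone, 5 with HF alone and 0 with LF alone. For the MKI67 settings by slide, normexp, line or diet, the share of all probes is not given here. Those counts are therefore no result about the members. With TOP2A the count of 14 became 6 in the low RFI line, 6 with LF, 9 on the first and 8 on the second scan day, sets with fewer pigs. It was 13 with slide means removed, 14 with normexp and quantile normalization and 11 with the deposited values, which held 20 of the members in this fit. The cause of the change with the reference gene was not tested. No paired analysis was possible because the labels give no replicate numbers shared by the groups. Signal over background limits TTK, well above it on 5 arrays, and FOXM1, on 0. The TOP2A settings, the other MKI67 probe and the probe most like TOP2A were chosen after seeing the data.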
